A study of Mus musculus with 8 samples.

Results

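Kupffer cells are the macrophages that live in the liver sinusoids, where they clear particles, dying red cells and lipoproteins from portal blood. When they are lost, or when the liver is injured or inflamed, blood monocytes enter the tissue, and some of them take on a resident or a lipid-handling macrophage state. These states differ in the surface receptors they carry most of, although many of the receptors are shared with each other and with other leukocytes. The panel described here holds 33 macrophage genes, chosen by name: 8 resident Kupffer cell genes, 5 genes of recruited monocytes, 3 of lipid-associated macrophages, 6 Fc receptors, adaptors and scavenger receptors, 8 general myeloid and leukocyte genes and 3 phagosome and oxidase genes. All 33 of 33 had at least 1 probe among the 24029 named genes of the array, with 45 probes in total, and the probe of highest mean signal stood for each gene.

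RNA came from the livers of bl6 mice, 12 weeks old and kept on chow. All of them had received a dose of 2e+09 (no unit given) of an adenovirus, either pblockITcontrol (the control group, 4 arrays) or pblockITshRaly, which carries a short hairpin RNA against the RNA-binding protein gene Raly (the shRaly group, 4 arrays), and the RNA was taken at day 6. Both groups had therefore been given virus, and no liver without virus was analysed here. The labels number the arrays but do not say that each is a different mouse; a p-value here therefore reflects the spread among these 8 samples, which may be technical. Each liver was measured as a bulk sample on a single-colour Agilent array, so fewer cells of a type and less RNA per cell cannot be told apart.

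The Raly signal checks the labels. On control arrays 1 to 4 it was 100%, 84.3%, 105% and 112% of the control mean, and on shRaly arrays 1 to 4 it was 51.8%, 80.9%, 58.3% and 62.7%. The groups did not overlap, and shRaly 2 lay close to the lowest control array. The mean was 62.5% of control (log2 fold change -0.68, SE 0.15, limma adjusted p = 0.0749; exact two-sided permutation p = 0.0286, the smallest that 4 against 4 arrays can give). Between 45.9% and 51.1% of the spots on an array were well above background. Over all 14874 genes tested, 182 passed the threshold (an adjusted p under 0.05), 46 higher and 136 lower in shRaly. The control arrays lay in slide row 1 and the shRaly arrays in slide row 2, so an effect of slide row and one of group cannot be told apart.

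The data were those of liver with resident macrophages present: Clec4f, the C-type lectin that marks Kupffer cells in mouse, was well above background on all 8 arrays, as were Adgre1 (F4/80), Cd5l, Marco, Folr2 and Siglec1. In all, 30 of the 33 genes could be tested. Timd4, a receptor for phosphatidylserine on resident macrophages, Cd163, the receptor for haemoglobin bound to haptoglobin, and Spi1, the myeloid transcription factor PU.1, were not well above background on any array, so no fold is given for them.

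None of the macrophage genes passed the threshold in either direction: 0 of 30 by limma, where 1.22% of all genes tested did (0.309% higher, 0.914% lower). At an unadjusted p under 0.05 there was 1 of 30 (3.33%), Trem2, beside 16.1% of all genes (6.41% higher, 9.71% lower). The groups did not overlap for 1 of 30 (again Trem2, higher in shRaly), beside 10.4% of all genes (3.93% higher, 6.45% lower). The log2 fold change was positive for 21 (70.0%) and negative for 9 (30%), beside 46.2% positive over all genes, and its median was 0.11, beside -0.02 over all genes. The 95% interval lay within 1 log2 unit of 0 for 29 of 30 genes, the exception being Itgam, and within a 1.5-fold change for 19 of 30.

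**Figure D1:**
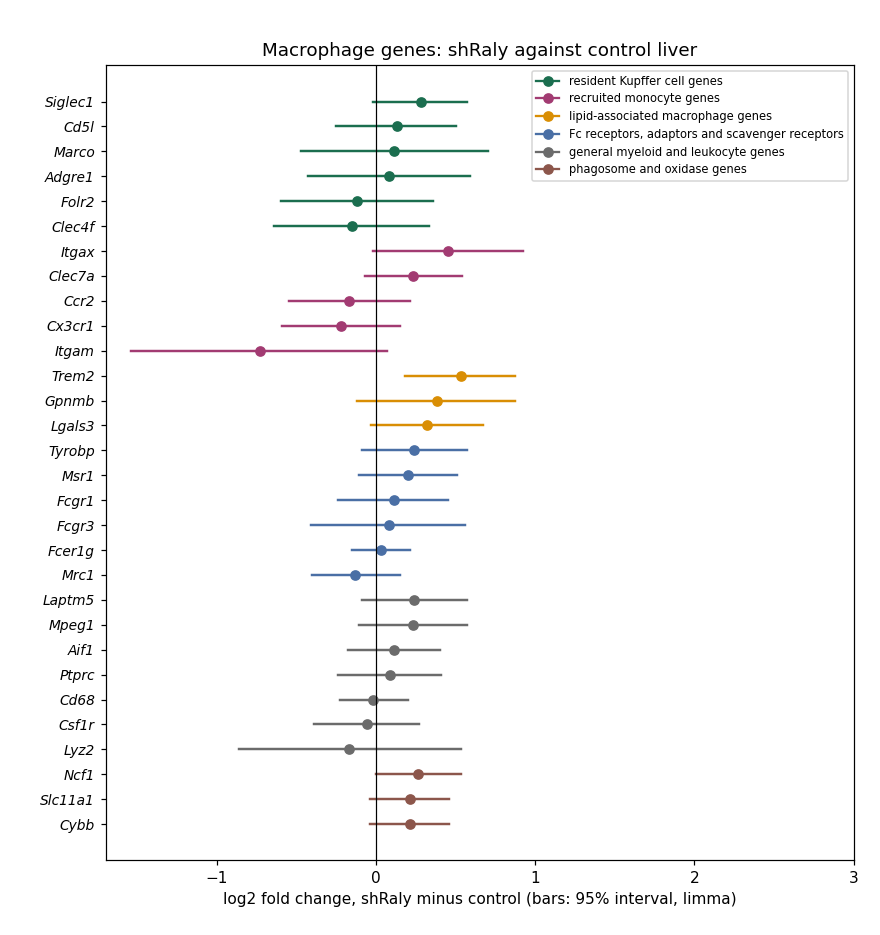
Log2 fold change (x axis, shRaly minus control) of the 30 macrophage genes tested (y axis), coloured by role, with points for the limma estimate and bars for its 95% interval, 4 arrays a group. Trem2 is the gene whose interval excludes 0 (0.18 to 0.87), and Itgam has the widest interval (-1.54 to 0.07).

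The range of the panel's median log2 signal among the control arrays, -0.20 to 0.15, was wider than its median log2 fold change of 0.11. A range over 4 arrays is not the same measure as a difference of group means. Taken over the 30 genes relative to the control mean, the median log2 signal was -0.20, -0.02, 0.15 and 0.05 on control arrays 1 to 4, and 0.03, 0.11, 0.21 and 0.22 on shRaly arrays 1 to 4. On control 1, 23 of the 30 genes lay below the control mean, and on control 3, 28 of 30 lay above it, while over all genes 47.6% and 49.5% lay above it on those arrays. Such a common shift on single arrays was thus present within the control group. On shRaly arrays 1 to 4, 63.3%, 70.0%, 63.3% and 83.3% of the panel lay above the control mean. Over all genes 47.4%, 48.1%, 49.0% and 46.2% did, so all 4 shRaly arrays were above that share. On control 2 and control 4 the panel's share was 46.7% and 63.3%, beside 45.8% and 55.5% of all genes. Without control 1 the median log2 fold change of the panel was 0.02.

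**Figure D2:**
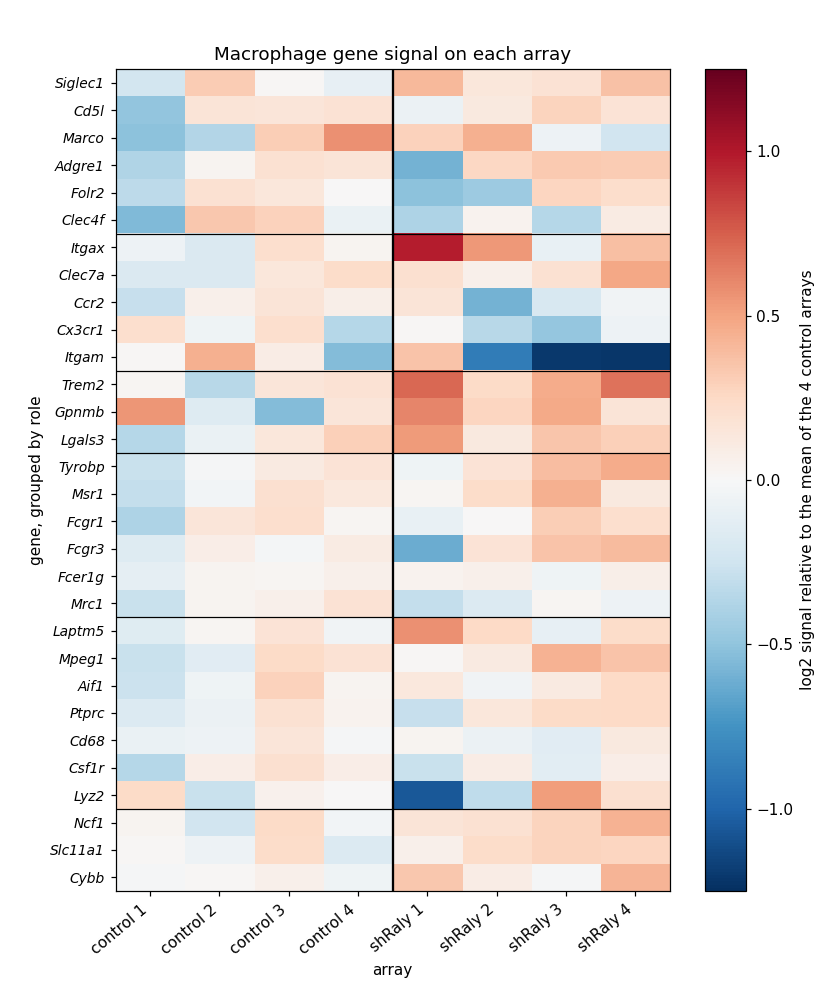
Log2 signal of the 30 macrophage genes (rows, grouped by role) on each of the 8 arrays (columns, controls left of the line), relative to the mean of the 4 control arrays (colour). Control 1 is low for 23 genes and control 3 is above the mean for 28, and Itgam is lowest on shRaly 3 and shRaly 4 (-1.21 and -1.22).

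Resident Kupffer cell genes had a median log2 fold change of 0.10 over the 6 tested, with 4 positive, 2 negative and 0 past the threshold. Clec4f, the Kupffer cell lectin that binds desialylated glycoproteins, read 68.3%, 126%, 123% and 94.3% of the control mean on control arrays 1 to 4 and 76.1%, 103%, 78.0% and 107% on shRaly arrays 1 to 4. The 2 groups overlapped over nearly their whole ranges, with control 1 the lowest of the 8 arrays. The log2 fold change of Clec4f was -0.15 (SE 0.21, 95% interval -0.64 to 0.33, limma adjusted p = 0.767). It was measured by 1 probe, on mouse build mm9 at chr6:83595281-83595339 on the minus strand, shown here because this gene identifies the cells; capitals mark its longest run of alternating C and A.
Clec4f: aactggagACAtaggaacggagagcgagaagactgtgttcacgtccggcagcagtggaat

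Cd5l encodes AIM, a secreted protein that macrophages release and that curbs their apoptosis. Its signal was 71.0%, 112%, 111% and 113% on the control arrays and 95.4%, 109%, 122% and 112% on the shRaly arrays. Control 1 stood apart below the other 7 arrays, which lay close together. The log2 fold change was 0.13 (SE 0.16, limma adjusted p = 0.751), and -0.04 without control 1.

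Adgre1 encodes F4/80, the classical mouse macrophage surface antigen. It read 76.9%, 102%, 114% and 112% on the control arrays and 66.4%, 120%, 126% and 124% on the shRaly arrays. One array of each group was low, control 1 and shRaly 1, and the other 3 shRaly arrays lay above every control array. Its second probe had the same shape, with 81.0% on control 1 and 60.5% on shRaly 1, the lowest of each group. The log2 fold change of Adgre1 was 0.08 (SE 0.22, limma adjusted p = 0.899), 0.30 without shRaly 1 and -0.05 without control 1, so 1 array decided its sign.

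Siglec1, the sialic acid receptor sialoadhesin, read 85.4%, 125%, 100% and 93.1% on the control arrays and 133%, 110%, 114% and 129% on the shRaly arrays. Here the shRaly arrays lay above 3 of the 4 control arrays and overlapped the other, and the log2 fold change was 0.28 (SE 0.13, 95% interval -0.02 to 0.57, limma adjusted p = 0.348). Marco, a scavenger receptor for bacteria and particles, had a log2 fold change of 0.11 with controls spread from 70.4% to 148%. Folr2, a folate receptor of resident macrophages, had a log2 fold change of -0.12, with shRaly 1 and shRaly 2 at 70.1% and 73.0% and shRaly 3 and shRaly 4 at 121% and 116%. The spread within a group was wider than the difference between groups for both.

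The genes of recruited monocytes had a median log2 fold change of -0.17 over 5 tested, with 2 positive, 3 negative and 0 past the threshold. Ccr2, the receptor for the chemokine CCL2 that brings monocytes out of the marrow, read 81.8%, 104%, 111% and 105% on the control arrays and 111%, 66.4%, 86.9% and 97.3% on the shRaly arrays. The shRaly arrays reached from the lowest of the 8 values to the level of the highest control. Its log2 fold change was -0.17 (SE 0.17, 95% interval -0.55 to 0.21, limma adjusted p = 0.667), and 0.06 when the background was corrected by normexp.

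Cx3cr1, the fractalkine receptor of patrolling monocytes and several tissue macrophages, read 115%, 96.3%, 115% and 77.9% on the control arrays and 101%, 78.2%, 71.5% and 95.9% on the shRaly arrays. These groups overlapped, and the log2 fold change was -0.22 (SE 0.16, limma adjusted p = 0.543). The other probes of Cx3cr1 past the filter gave -0.15 and -0.23.

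Itgax and Clec7a lay on the other side of 0. Itgax, the integrin CD11c, read 96.2%, 88.2%, 116% and 102% on the control arrays and 197%, 145%, 93.9% and 130% on the shRaly arrays. Of the shRaly arrays 3 lay above every control and shRaly 3 lay among them, with a log2 fold change of 0.45 (SE 0.21, 95% interval -0.02 to 0.92, limma adjusted p = 0.324). Clec7a, the beta-glucan receptor dectin-1, had a log2 fold change of 0.23 (SE 0.13, limma adjusted p = 0.435), with 88.0% to 117% on the control arrays and 104% to 140% on the shRaly arrays.

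**Figure D3:**
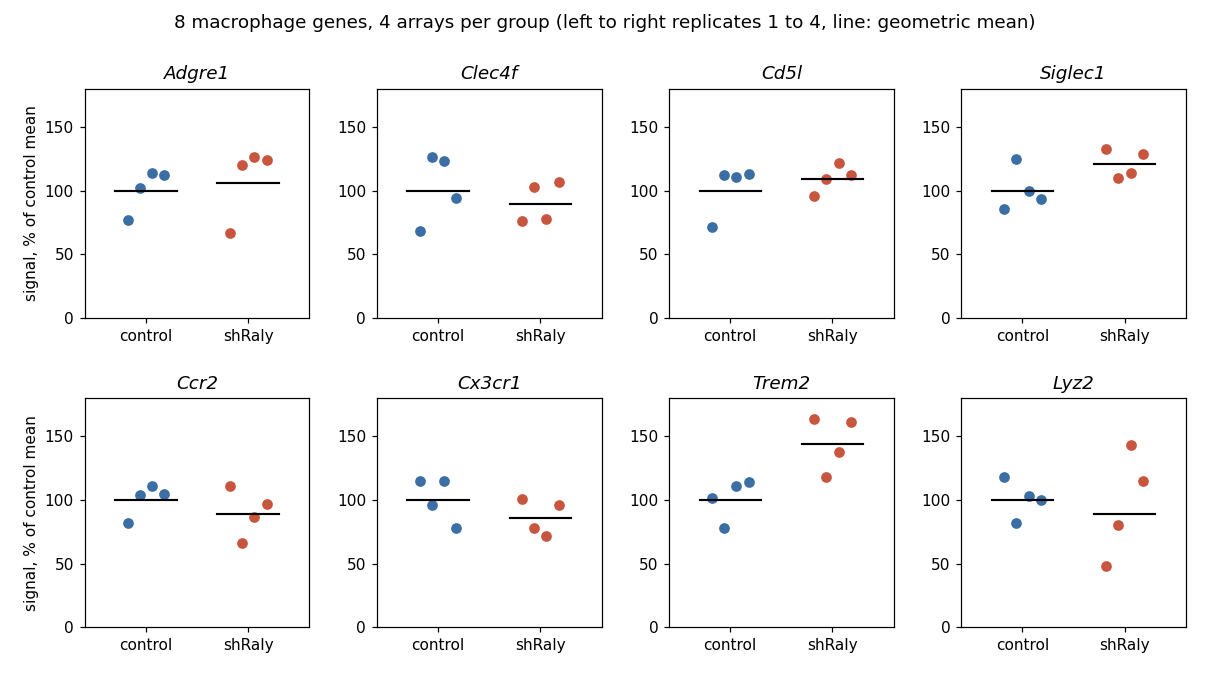
Signal of 8 macrophage genes as a percent of the control mean (y axis) on the 4 control and 4 shRaly arrays (points, replicates 1 to 4 from left to right), with lines for the geometric mean of each group. Trem2 is the panel without overlap between groups, while Adgre1 has 1 low array in each group (76.9% on control 1, 66.4% on shRaly 1) and Cd5l has 1 low control array (71.0% on control 1).

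Itgam, the integrin CD11b of monocytes, neutrophils and some macrophages, had the lowest log2 fold change of the panel, -0.73 (SE 0.36, 95% interval -1.54 to 0.07, limma adjusted p = 0.355), and this value belonged to a repeat-bearing probe. Its signal was 101%, 135%, 107% and 68.9% on the control arrays and 129%, 54.8%, 43.3% and 42.8% on the shRaly arrays. The last 3 shRaly arrays lay below every control, while shRaly 1 lay near the highest. The array holds 3 Itgam probes, all on the plus strand of mm9 chromosome 7, at chr7:135261755-135261814 (the brightest, used by the rule), chr7:135260275-135260334 (the second) and chr7:135212140-135212199 (the dimmest). They are shown because the brightest holds a long run of alternating C and A and the others do not. Capitals mark the longest such run, and of the brightest the first 30 of 60 bases are given.
Itgam brightest: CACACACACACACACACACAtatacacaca
Itgam second: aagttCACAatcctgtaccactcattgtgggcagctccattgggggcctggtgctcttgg
Itgam dimmest: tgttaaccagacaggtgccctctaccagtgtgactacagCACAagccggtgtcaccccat

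The brightest Itgam probe opens with a CA run of 20 bases, and among the other 44 probes of the macrophage panel the longest run of CA or TG was 7 bases. The comparison with other probes of this kind was made after that sequence had been seen. Of all probes on the array, 23 others held a CA run of at least 20 bases, all 23 were past the filter on dim probes, and their log2 fold change was negative for 23 of 23, from -1.13 to -0.39 with a median of -0.68. Their median log2 signal relative to the control mean was 0.03, 0.42, 0.07 and -0.53 on control arrays 1 to 4 and 0.29, -0.75, -1.09 and -1.17 on shRaly arrays 1 to 4. The brightest Itgam probe gave 0.01, 0.44, 0.09 and -0.54 on the control arrays and 0.36, -0.87, -1.21 and -1.22 on the shRaly arrays, which is the same order of arrays and nearly the same values. These 23 probes belong to other genes or to none, and share with the Itgam probe the repeat and the arrays. The cause of the shared pattern was not tested, and the groups also differed in slide row.

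The complementary repeat went the other way. A TG run of at least 20 bases was held by 52 probes, all 52 past the filter, and their log2 fold change was positive for 52 of 52, from 0.14 to 0.51 with a median of 0.34. Over all 26936 probes past the filter 12037 were positive, with a median of -0.03. The second Itgam probe, whose longest run is 4 bases, was well above background on 5 of 8 arrays and read 106%, 90.8%, 102% and 102% on the control arrays and 62.6%, 98.6%, 56.9% and 93.1% on the shRaly arrays. That order of the shRaly arrays is unlike the one from the brightest probe, with shRaly 1 low in place of high. In the same fit with second-brightest probes, added after seeing the data, the log2 fold change of Itgam was -0.40 (SE 0.19, limma adjusted p = 0.352). The dimmest probe was well above background on 1 array and gives no usable fold. Among all 14874 genes tested, 21 were represented by a CA run probe and 48 by a TG run probe, and 0 of either passed the threshold.

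**Figure D4:**
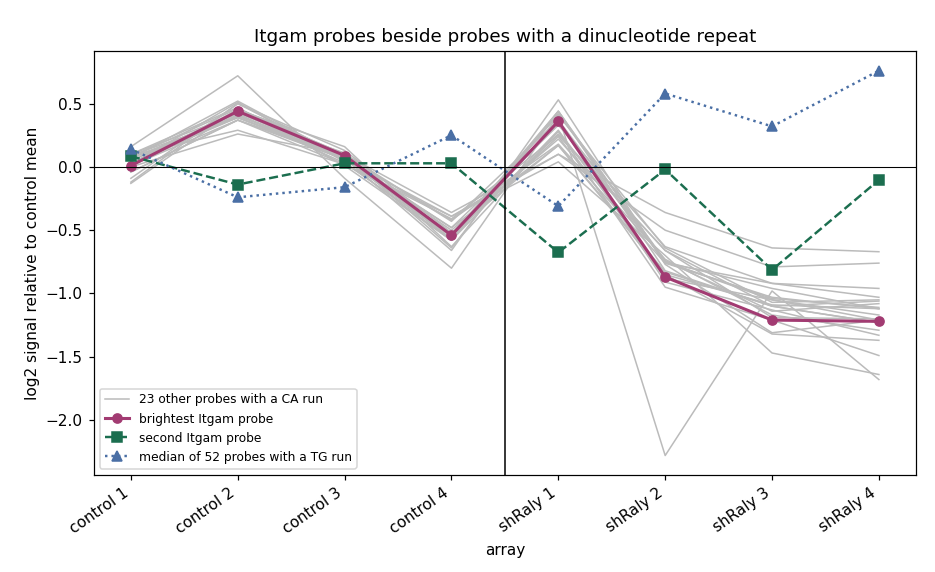
Log2 signal relative to the control mean (y axis) on each array (x axis) for the brightest Itgam probe, the second Itgam probe, 23 other probes with a CA run of at least 20 bases (1 grey line each) and the median of 52 probes with a TG run. The brightest Itgam probe runs within the grey lines on every array, and the second Itgam probe does not follow them.

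The contrast of resident with recruited genes was smaller when that probe was left out, and it varied widely between arrays of the same group. The median log2 fold change of the resident genes minus that of the recruited genes was 0.26. By array, the same difference relative to the control mean was -0.38, 0.23, 0.02 and 0.05 on the control arrays and -0.43, 0.48, 0.43 and 0.23 on the shRaly arrays. Both groups held 1 clearly negative array, control 1 and shRaly 1, and the groups overlapped. Without Itgam the 4 remaining recruited genes had a median log2 fold change of 0.03 and the difference was 0.06, with -0.32, 0.29, -0.01 and 0.03 on the control arrays and -0.41, 0.28, 0.38 and 0.02 on the shRaly arrays. With normexp background correction and Itgam kept it was -0.01, and without shRaly 2 it was 0.04, while without shRaly 1 it was 0.40. No resident or recruited gene passed the threshold under any of these settings. The difference between the 2 sets of genes is a description of these 8 samples and was not tested.

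The lipid-associated macrophage genes, which mark macrophages around lipid-laden or dying hepatocytes, had the highest sublist median, 0.38, with 3 of 3 positive and 0 past the threshold. Trem2, the lipid-sensing receptor of this state, read 102%, 78.3%, 111% and 114% on the control arrays and 164%, 118%, 138% and 161% on the shRaly arrays. Every shRaly array lay above every control array, the gap being small between control 4 and shRaly 2. Trem2 stood at 144% of control (log2 fold change 0.53, SE 0.15, 95% interval 0.18 to 0.87, limma adjusted p = 0.143), and 3.93% of all genes tested were higher without overlap. Its probe lies at chr17:48491537-48491596 of mm9 on the plus strand, and its adjusted p ranged from 0.0910 without shRaly 2 to 0.324 without shRaly 4.

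Gpnmb, a glycoprotein of lipid-laden and lysosome-rich macrophages, was dim, being well above background on 2 control and 3 shRaly arrays. It read 147%, 89.6%, 68.8% and 111% on the control arrays and 153%, 121%, 138% and 111% on the shRaly arrays, which overlap, with a log2 fold change of 0.38 (SE 0.22, limma adjusted p = 0.441). Lgals3, the secreted lectin galectin-3, read 77.7%, 94.4%, 111% and 123% on the control arrays and 144%, 109%, 127% and 123% on the shRaly arrays, with a log2 fold change of 0.32 (SE 0.15, 95% interval -0.03 to 0.67, limma adjusted p = 0.347). For Lgals3 shRaly 1 and shRaly 3 lay above every control array, and for Gpnmb shRaly 1 alone did. Of the 6 further genes listed for this state, 5 could be tested, with 1 positive and 4 negative, a median log2 fold change of -0.12 and 0 past the threshold. Among them were Atp6v0d2, a proton pump subunit, at -1.13 (limma adjusted p = 0.225), and Fabp5, a fatty acid-binding protein, at -0.18 (limma adjusted p = 0.831). Atp6v0d2 was dim, being well above background on 3 control arrays and 1 shRaly array. It thus passed the filter mainly through the control group, where it was higher, and its fold is uncertain.

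The Fc receptors, adaptors and scavenger receptors had a median log2 fold change of 0.09 over 6 tested, from -0.13 to 0.24, with 0 past the threshold. Fcer1g, the signalling chain shared by Fc receptors, had the smallest SE of the panel, at 92.7% to 104% on the control arrays and 96.7% to 105% on the shRaly arrays (log2 fold change 0.03, SE 0.08, 95% interval -0.15 to 0.21). Tyrobp encodes DAP12, the adaptor through which TREM2 signals. It read 82.4%, 99.6%, 108% and 113% on the control arrays and 96.4%, 112%, 131% and 137% on the shRaly arrays, overlapping groups with a log2 fold change of 0.24 (SE 0.14, limma adjusted p = 0.454). The high-affinity IgG receptor Fcgr1 stood at 0.11, the low-affinity IgG receptor Fcgr3 at 0.08 and the scavenger receptor Msr1 at 0.20 on the log2 fold change scale. Mrc1, the mannose receptor, which liver endothelial cells express as well, was at -0.13 (95% interval -0.40 to 0.15).

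The general myeloid and leukocyte genes had a median log2 fold change of 0.09 over 7 tested, from -0.17 to 0.24, again with 0 past the threshold. Csf1r, the receptor for the growth factors CSF1 and IL-34 on which macrophages depend, stood at -0.06 (95% interval -0.39 to 0.27) and Cd68, a lysosomal glycoprotein of macrophages, at -0.02 (95% interval -0.23 to 0.20). Lyz2, the macrophage lysozyme, had the largest SE after Itgam, with 118%, 82.1%, 103% and 99.8% on the control arrays and 47.9%, 80.1%, 143% and 115% on the shRaly arrays. The shRaly arrays enclosed the whole control range, and the log2 fold change of -0.17 (SE 0.31) became 0.13 without shRaly 1. Mpeg1, the pore-forming perforin-2, stood at 0.23, Laptm5, a lysosomal membrane protein of leukocytes, at 0.24, Ptprc, the pan-leukocyte phosphatase CD45, at 0.09, and Aif1, the actin-binding protein IBA1, at 0.11.

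The phagosome and oxidase genes lay close together, with log2 fold changes from 0.21 to 0.26 and 3 of 3 positive. Ncf1, the p47phox subunit that activates the phagocyte oxidase, read 102%, 84.7%, 118% and 98.3% on the control arrays and 112%, 114%, 122% and 135% on the shRaly arrays (log2 fold change 0.26, SE 0.12, 95% interval from just below 0 to 0.53, limma adjusted p = 0.314). Cybb, its membrane subunit gp91phox, read 99.3%, 101%, 104% and 96.3% on the control arrays and 127%, 107%, 99.3% and 133% on the shRaly arrays (0.21, SE 0.11, limma adjusted p = 0.396). Slc11a1, the phagosomal metal transporter NRAMP1, stood at 0.21 (SE 0.11, limma adjusted p = 0.386). In each of these genes at least 1 shRaly array lay within the control range.

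Other genes of the same cells were read from lists chosen by name. Of 12 further Kupffer cell genes, 12 were tested, with a median log2 fold change of 0.09, 8 positive and 4 negative, and 0 past the threshold. Id3, a transcriptional regulator needed for Kupffer cell identity in mouse and also expressed in other liver cells, read 118%, 76.3%, 106% and 105% on the control arrays and 50%, 69.8%, 42.9% and 38.1% on the shRaly arrays. Those groups did not overlap, and the log2 fold change of -1.03 (SE 0.20) narrowly missed the threshold (limma adjusted p = 0.0525) and passed it with normexp background correction (-1.05, limma adjusted p = 0.00872). Id3 also passed with only probes well above background on all arrays (limma adjusted p = 0.0431) and without shRaly 2 (limma adjusted p = 0.0228), and in no other setting. Spic, a transcription factor of iron-recycling macrophages, stood at 0.44 (limma adjusted p = 0.348).

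Of 10 further monocyte genes 9 were tested, with 5 positive and 4 negative, a median log2 fold change of 0.05 and 0 past the threshold. Nr4a1, a nuclear receptor needed for patrolling monocytes and an early response gene in many cells, was at -1.11 (SE 0.27, limma adjusted p = 0.0917; 0.0275 with normexp). Its groups did not overlap, every shRaly array lying below every control array. Over all genes tested, 6.45% were lower without overlap and 3.93% were higher without overlap. Among 9 chemoattractants and macrophage growth factors 7 were tested, with 6 positive, a median of 0.16 and 0 past the threshold. Ccl3 and Ccl4, chemokines for monocytes and lymphocytes, stood at 0.87 (SE 0.21, limma adjusted p = 0.0911) and 0.86 (SE 0.24, limma adjusted p = 0.129), both without overlap and both highest on shRaly 1 (265% and 269% of the control mean). Of 8 cytokines and effectors 4 were tested, with 1 positive, 3 negative and 0 past the threshold. Il1b, the inflammasome-processed cytokine, read 94.0%, 96.6%, 119% and 92.7% on the control arrays and 64.1%, 68.1%, 43.6% and 59.6% on the shRaly arrays (log2 fold change -0.78, SE 0.15, limma adjusted p = 0.0506), and Nos2, the inducible nitric oxide synthase, was at -0.19 (limma adjusted p = 0.657). The Il1b groups did not overlap, and it passed the threshold with quantile normalization (-0.79, limma adjusted p = 0.0401). Il1b also passed with only probes well above background on all arrays (limma adjusted p = 0.0431) and without shRaly 2 (limma adjusted p = 0.0442), and in no other setting.

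Markers of other cells that share genes with the panel were read beside it, with 0 past the threshold in each list in the main comparison of all 8 arrays, before any change of setting. The genes named are those of smallest p, so they need not stand for their list. Neutrophils carry Itgam, Cybb, Ncf1 and Tyrobp too: 7 of 10 neutrophil markers were tested, 4 positive and 3 negative, with a median log2 fold change of 0.15 and array medians from -0.37 to 0.45 in controls and from 0.07 to 0.36 in shRaly, and Retnlg and S100a9 stood at 0.74 and 0.40. Retnlg was dim, being well above background on 2 control and 4 shRaly arrays. It thus passed the filter mainly through the shRaly group, where it was higher, and its fold is uncertain. Csf3r, among the negative markers, had a mean scaled log2 signal of 7.19 in controls, beside -1.04 for S100a8. Whether its probe reads neutrophils was not tested. For dendritic cells, which carry Itgax, 7 of 8 markers were tested (4 positive and 3 negative, median 0.06, array medians from -0.15 to 0.11 in controls and from -0.16 to 0.18 in shRaly), with Zbtb46 at -0.24 and Siglech at -0.23. The Siglech probe had a mean scaled log2 signal of 7.37 in controls, beside -2.84 for Zbtb46 and 7.65 for the hepatocyte gene Hnf4a. Whether it reads dendritic cells was not tested. For T and NK cells 6 of 8 were tested (4 positive and 2 negative, median 0.09, array medians from -0.27 to 0.16 and from -0.20 to 0.27), with Cd4, which some mouse macrophages also express, at -0.75 (limma adjusted p = 0.143) and Cd3e at -0.39, the 2 negative ones. Cd4 passed the threshold with normexp (-0.80, limma adjusted p = 0.0360) and without shRaly 2 (-0.96, limma adjusted p = 0.0293). The Cd4 probe had a mean scaled log2 signal of 5.09 in controls, beside 0.79 for Cd3e and -1.13 for Cd3d. Which cells it reads was not tested. For B cells 4 of 5 were tested and 4 were negative (median -0.25, array medians from -0.14 to 0.19 and from -0.40 to 0.06), with Cd79a at -0.36 and Cd79b at -0.13, and for mast cells 2 of 5, Kit at -0.25 and Tpsb2 at -0.20.

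Liver endothelial markers, which share Mrc1, had a median log2 fold change of -0.17 over 6 of 6 (2 positive and 4 negative, array medians from -0.25 to 0.08 in controls and from -0.33 to 0.02 in shRaly), with Stab2 at -0.31 and Clec4g at -0.27. Hepatocyte markers had a median of -0.04 over 7 of 7 (3 positive and 4 negative, from -0.47 to 0.44, array medians from -0.08 to 0.06 and from -0.23 to 0.06), with Alb at -0.37 and Apoa1 at -0.47. Stellate cell markers had a median of -0.20 over 6 (2 positive and 4 negative), with Rgs5 at 0.53 and Pdgfrb at -0.46, and Rgs5 passed the threshold without shRaly 1 (0.71, limma adjusted p = 0.0293). Cholangiocyte markers had a median of -0.03 over 4 (2 positive and 2 negative), with Sox9 at -0.21 and Epcam at -0.22, and red blood cell markers -0.03 over 4 (1 positive and 3 negative), with Alas2 at -0.07 and Slc4a1 at 0.09. The part of these other cells in the macrophage gene values was not tested.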

How the data were processed

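Liver RNA of 4 control and 4 shRaly samples was measured on 1 slide of 8 arrays. Per the file headers, the deposited intensity values come from Agilent Feature Extraction 11.5.1.1, and the processed signal intensity is background-subtracted and not normalized between arrays. The deposited series table, whose intensity values equal the processed signal on 62976 of 62976 spots of each array, was used as an alternative. Any normalization by the authors between arrays is not given in the sources.

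The processed signal was taken to log2 after each array was scaled to its 75th percentile over non-control spots (7.86 to 8.19 on the log2 scale), flagged spots (137 to 163 an array) were set to missing, 0 spots were saturated, and spots of a probe were averaged. A percent is the back-transformed value against the mean log2 of the control arrays. Genes were tested that had a probe flagged well above background on 4 or more of 8 arrays, with 3 or more values a group, which left 14874 genes, and the brightest such probe stood for it. Groups were compared with limma 3.58.1 in R 4.3.3 (lmFit, eBayes), adjusted by Benjamini-Hochberg over all genes tested, with a threshold of 0.05. The fit was tested on simulated data, as a check of the code alone, and no result here rests on it. The number of arrays limits the precision.

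The members and lists were chosen with earlier results of these data known. The genes named are Raly, the 33 members and, of each of 15 other lists (109 genes), any gene past the threshold or else the 2 of smallest p; 1 gene under this rule is not reported here. Members were found by the gene name in the files. Other names come through RefSeq accessions (27656 probes), current symbols (3401), older symbols (321) or the name in the file (1775). Positions and probe sequences are those of the files, on build mm9. Exon, intron and UTR annotation was not analysed here. Same-numbered arrays of the groups did not deviate together (correlations of 0.09, -0.02, -0.07 and 0.14), so the numbers were not used to pair samples.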

Additional observations from a re-analysis of the deposited data

Results flagged for a closer look

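For 5 of 122 groups of 4 arrays (4.10%), over 61 named genes with a test, 1 array lay far from the other 3 by Dixon's test, and chance flags about 1 in 20 groups. Adgre1 on shRaly 1 was 66.4% of the control mean, against 120% to 126% on the other shRaly arrays. Cd5l on control 1 was 71.0%, against 111% to 113% on the other controls. Ccl3 on shRaly 1 was 265%, against 157% to 167%. Il1b on control 3 was 119%, against 92.7% to 96.6%. Alb on control 3 was 92.1%, against 102% to 104%.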

How the results depend on the processing

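The count of macrophage genes past the threshold was 0 under all 17 alternatives, the 8 that each leave out 1 array included, and the smallest adjusted p among them lay between 0.0694 (Itgam, without shRaly 1) and 0.324 (Trem2, without shRaly 4). Of the 17, the deposited series table holds the same values as the processed signal. Its result was therefore fixed in advance and adds no check. The panel's median log2 fold change ran from 0.09 to 0.14 under the other settings and from 0.02 to 0.19 when an array was left out, and was 0.11 without Itgam, an alternative chosen after seeing the data. The resident minus recruited difference ran from -0.01 to 0.29 and from 0.04 to 0.40. The count of all genes past the threshold was 182, and it was 42 with no filter on dim probes, 46 with the replicate number as a block, and 17 to 282 when an array was left out (17 without control 2, 282 without shRaly 2, 55, 20 and 49 without control 1, 3 and 4, 119, 47 and 20 without shRaly 1, 3 and 4). The numbers do not pair the samples, and the replicate block changed no macrophage call. Raly passed the threshold with normexp (-0.71) and without shRaly 2 (-0.80), with a range of -0.80 to -0.59 when an array was left out. Signs near 0 turned: with normexp Ccr2 0.06, Fcer1g -0.04, Nos2 0.09, Tpsb2 0.09 and Epcam 0.09, with median scaling Cd68 0.01, and with the mean of a gene's probes Siglech 0.09. When an array was left out the log2 fold change ran from -0.05 to 0.30 for Adgre1, -0.06 to 0.30 for Marco, -0.04 to 0.19 for Cd5l, -0.02 to 0.18 for Fcgr1, -0.01 to 0.06 for Fcer1g, -0.06 to 0.03 for Cd68, -0.18 to 0.01 for Csf1r, -0.25 to 0.01 for Folr2, -0.40 to 0.13 for Lyz2, -0.03 to 0.31 for Fcgr3, -0.34 to 0.11 for Fabp5, -0.55 to 0.05 for Epcam and -0.14 to 0.26 for Slc4a1. The cause was not tested. In all, 498 of 517 values of the tested macrophage genes, those of 8 second-brightest probes included, kept their direction and their side of the threshold. The values from the deposited series table, which could not differ, are among the 517. The sets of 5 genes or fewer give medians that rest on few probes, and genes not well above background have no fold here.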
